A study of Mus musculus with 6 samples.

Results

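The genes examined here were 9 genes that mark amacrine cells of the mouse retina by their transmitter or their identity. They were Gad1, Gad2, Slc32a1, Slc6a9, Chat, Th, Tfap2a, Tfap2b and Calb2, taken by gene symbol from the deposited transcript tables. A value was obtained for 8 of the 9, among 25168 genes with a value above 0 in any library, and Th was not analysed here. RNA-seq was done on whole retina of wild-type mice labelled as C57BL/6 (C57BL/6J in the study's methods) and 5 weeks old, with 3 libraries in each of 2 groups. Every retina in both groups had received NMDA, an agonist of glutamate receptors that injures neurons of the inner retina, into the vitreous. In the NMDA + SCF group, stem cell factor (SCF, the ligand of the receptor c-kit) was injected 2 days later, and in the NMDA + PBS group phosphate-buffered saline took its place. The NMDA + PBS group was therefore an injured control, and no uninjured retina entered the comparison. Per the study, the retinal cells were taken a week after SCF, with controls matched in time. The number of animals behind a library is not given in the sources used here, so p-values measure the spread between libraries, which may be partly technical.

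Amacrine cells are interneurons of the inner retina that act on bipolar cells, on ganglion cells and on each other, and nearly all of them release an inhibitory transmitter. GABAergic amacrine cells make GABA with the glutamate decarboxylases encoded by Gad1 and Gad2, glycinergic amacrine cells take up glycine through the transporter encoded by Slc6a9, and the vesicular transporter encoded by Slc32a1 loads either transmitter into synaptic vesicles. Starburst amacrine cells also make acetylcholine with the enzyme encoded by Chat, and a sparse class makes dopamine with tyrosine hydroxylase, encoded by Th. The AP-2 factors encoded by Tfap2a and Tfap2b are needed for amacrine and horizontal cells, and calretinin, the calcium-binding protein encoded by Calb2, is found in several amacrine types and in ganglion cells.

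Values are FPKM, that is fragments relative to the length of the transcript and the size of the library, summed per gene over the transcripts listed in all 6 tables. Where 3 values are given for a group, they are those of its replicates 1, 2 and 3. The clean reads numbered 44925938 to 48783182 per library, and 2826013 to 3742303 fragments per library stood behind the values of named transcripts. The tables used 2 different transcript lists. The 3 NMDA + SCF libraries and NMDA + PBS replicate 1 have list A, and NMDA + PBS replicates 2 and 3 have list B, so the fold change of a member against NMDA + PBS replicate 1 alone is given beside its own where that changed it. Rod markers were high in every library, with a summed FPKM of 2756 to 3348 in NMDA + PBS and 3171 to 3774 in NMDA + SCF. Fold changes are on the log2(FPKM + 1) scale, NMDA + SCF minus NMDA + PBS, which understates the change of low genes. In bulk retina, fewer cells of a type and less RNA per cell cannot be told apart.

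Of the 8 amacrine genes, Slc32a1 was the only one that limma placed at an unadjusted p of at most 0.05, and it was higher in NMDA + SCF. No member was lower at that threshold, and 0 passed a Benjamini-Hochberg adjusted p of 0.05. Over all genes, 4.33% were higher and 4.91% lower at an unadjusted p of 0.05. An adjusted p of at most 0.05 was reached by 0.0% of genes in limma, and the thresholds of the study's methods (fold change of at least 2 and adjusted p of at most 0.001) by 0.0%. limma's voom on the recovered fragments called 2 genes at an adjusted p of 0.05, of which 0 were among the 8. Over the 7 members with a mean of at least 1 FPKM, the log2 fold changes were positive for 4 and negative for 3, with a median of 0.17, beside 0.071 over all genes of that level. Against NMDA + PBS replicate 1 alone the median over these 7 was -0.078.

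**Figure D1:**
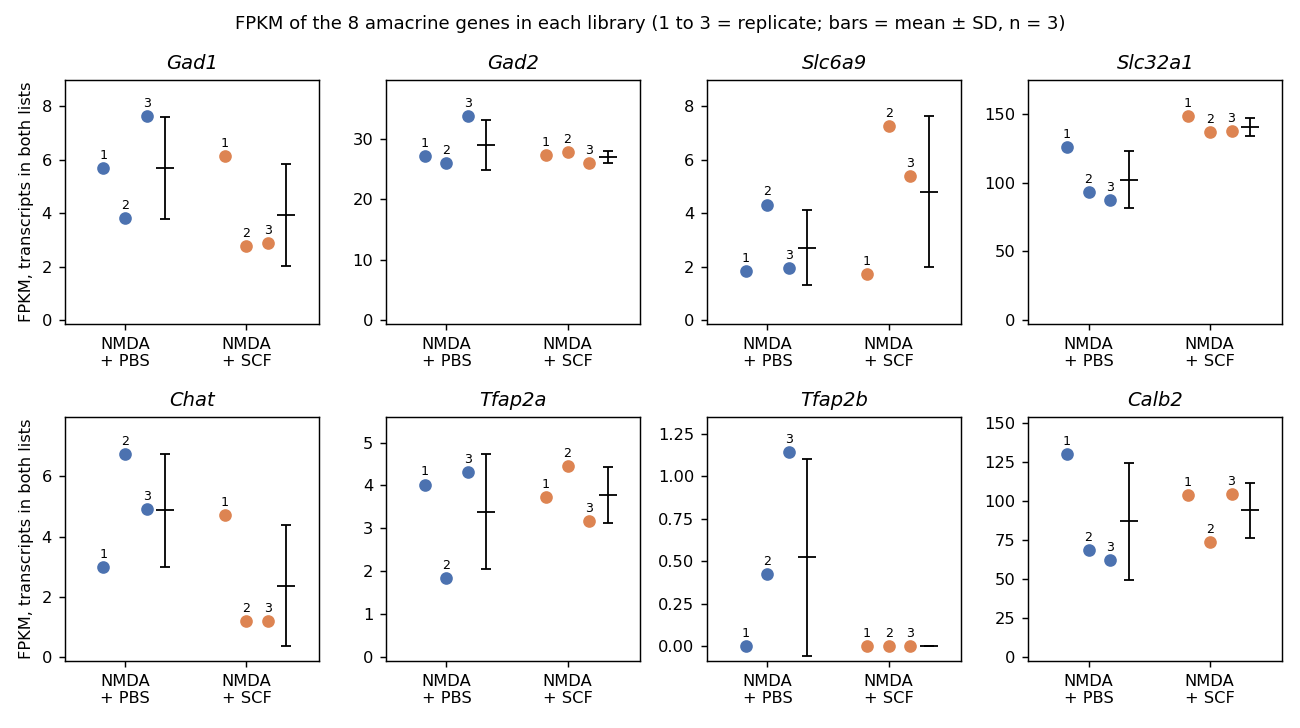
FPKM (vertical axis, from 0) of the 8 amacrine genes in each library of NMDA + PBS (blue) and NMDA + SCF (orange), with the replicate number above each point and the mean ± SD (n = 3) beside each group. The 3 NMDA + SCF libraries lie above the 3 NMDA + PBS libraries for Slc32a1, and the groups overlap for the other 7 genes.

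Levels are compared between these genes as FPKM over the transcripts in both lists, which is scaled to transcript length. The order holds for those transcripts only. Slc32a1 had the highest mean over the 6 libraries (121.4 FPKM), followed by Calb2 (90.5 FPKM), and the library ranges of these neighbours overlapped. Gad2 followed at 28.0 FPKM, and its range did not overlap that of Calb2. Gad1 (4.81 FPKM), Slc6a9 (3.75 FPKM), Chat (3.62 FPKM) and Tfap2a (3.59 FPKM) formed a lower tier in which each neighbour overlapped the next, and the highest Gad1 library was below the lowest Gad2 library. Tfap2b was last at 0.261 FPKM, apart from Tfap2a. That value came from 1 and 3 fragments of a retained-intron transcript in NMDA + PBS replicates 2 and 3. It is not read as a level of the gene. A coding transcript of Tfap2b in list A only, left out here, had 0.906 to 1.65 FPKM. With all listed transcripts, Slc6a9 had 14.5 to 26.1 FPKM in list A libraries and at most 4.32 FPKM in list B libraries. The Gad1 value describes mainly short forms. Slc32a1 stood at the 98.4th percentile of the genes tested, and Tfap2b over the shared transcripts at the 22.9th. Among the 7 genes with a mean of at least 1 FPKM, Gad2 varied least between libraries, with its highest library 1.30 times its lowest, and Chat varied most, at 5.57 times.

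The members with the most counted fragments that serve GABA were Slc32a1 and Gad2, which encode the vesicle loading step and a synthesis step and which differed in how the groups lay. Their promoters are shown for that reason, as RefSeq reference sequence of GRCm38.p6 from 250 bases before to 50 bases after the start site, 5′ to 3′ on the strand of the gene. The Slc32a1 window is chr2:158610508-158610807 (+) and the Gad2 window is chr2:22622077-22622376 (+). Capitals mark matches to GCCNNNGGC, letters bound by AP-2 factors such as the products of Tfap2a and Tfap2b, which read the same on both strands.
Slc32a1: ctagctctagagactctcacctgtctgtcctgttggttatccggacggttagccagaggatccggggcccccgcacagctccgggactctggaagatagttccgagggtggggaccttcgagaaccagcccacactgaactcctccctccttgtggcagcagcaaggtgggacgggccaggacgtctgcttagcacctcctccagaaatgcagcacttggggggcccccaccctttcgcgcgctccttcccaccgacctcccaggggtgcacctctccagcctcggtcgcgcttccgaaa
Gad2: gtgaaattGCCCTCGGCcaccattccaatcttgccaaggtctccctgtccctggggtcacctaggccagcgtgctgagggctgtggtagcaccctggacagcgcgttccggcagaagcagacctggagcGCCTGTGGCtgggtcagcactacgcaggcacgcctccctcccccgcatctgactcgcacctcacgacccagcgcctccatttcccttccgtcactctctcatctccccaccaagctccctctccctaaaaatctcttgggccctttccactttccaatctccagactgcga
The Gad2 window held 2 matches and the Slc32a1 window 0. Of the 11 promoters that the RefSeq table gave for 8 of the 9 genes, 1 held a match, beside 16.6% of all 32851 promoters of the same length. Calb2 was not in that table. A match describes the letters in the window and is not a measured site.

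The synthesis genes did not differ detectably between the groups. Gad2 (chr2:22622205-22693874, + strand, GRCm38) encodes GAD65, the decarboxylase found mainly at nerve terminals. Its FPKM was 27.1, 26.0 and 33.7 in NMDA + PBS and 27.3, 27.8 and 25.9 in NMDA + SCF. All but 1 of the libraries lay between 25.9 and 27.8 FPKM, NMDA + PBS replicate 3 was the highest, and the groups overlapped. The means were 28.9 ± 4.17 and 27.0 ± 0.954 FPKM (SD, n = 3 libraries per group). The log2 fold change was -0.09 (SE 0.174, 95% interval -0.50 to 0.32), with an adjusted p of 0.863 in limma. These values rest on 515 to 860 counted fragments per library, nearly all on the 16-exon protein-coding transcript of 5744 bases. The interval of Gad2 was the narrowest of the 8 genes.

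Gad1 (chr2:70553072-70602014, + strand) encodes GAD67, the other decarboxylase. Its FPKM was 5.67, 3.81 and 7.62 in the NMDA + PBS libraries and 6.13, 2.75 and 2.89 in the NMDA + SCF libraries. NMDA + SCF replicate 1 lay among the NMDA + PBS libraries, the other two were below all of them, and the groups overlapped. The means were 5.70 ± 1.91 and 3.92 ± 1.91 FPKM, and the log2 fold change was -0.47 (SE 0.363, 95% interval -1.32 to 0.38, adjusted p = 0.688 in limma). Gad1 rested on 14 to 53 fragments per library. The 17-exon coding transcript of Gad1 (3355 bases) was in list B only and had 0 fragments in both of its libraries. The largest part of the Gad1 value in each library came from a coding transcript of 6 exons and 1138 bases (chr2:70563442-70585946), with 17, 10 and 19 fragments in NMDA + PBS and 16, 5 and 8 in NMDA + SCF. The values of Gad1 therefore describe mainly short forms that end before its last exons, and the ratio of Gad2 to Gad1 between libraries (4.42 to 10.1) is a ratio to these forms.

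Slc32a1 (chr2:158610767-158615748, + strand) encodes the vesicular inhibitory amino acid transporter that GABAergic and glycinergic neurons share. Its FPKM was 125.9, 92.9 and 87.4 in NMDA + PBS and 148.2, 136.5 and 137.4 in NMDA + SCF. All NMDA + SCF libraries were above all NMDA + PBS libraries, and NMDA + PBS replicate 1 was the nearest of the controls. The means were 102 ± 20.8 and 141 ± 6.49 FPKM (SD, n = 3 libraries per group), a ratio of 1.38. The log2 fold change was 0.48 (SE 0.191, 95% interval 0.03 to 0.93). The unadjusted p was 0.0401 and the adjusted p 0.535 in limma, so the difference did not pass the correction over all genes. The two-sided exact permutation test over the 6 libraries gave p = 0.1, the smallest that 3 against 3 libraries allow.

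Groups that did not overlap, with NMDA + SCF higher, were found for 7.62% of all genes, and for 11.8% of genes with a mean of at least 1 FPKM. Groups that did not overlap with NMDA + SCF lower were found for 6.45%. Slc32a1 was the only one of the 8 amacrine genes in either class, a share that is near these backgrounds. The depth behind it was 1033 to 1199 fragments in NMDA + PBS and 1329 to 1420 in NMDA + SCF, on 1 annotated transcript of 2 exons and 2797 bases that was in both lists. Of its exon bases, 697 are shared with Gm14205 on the opposite strand. That gene had no value in these tables, and whether the counting used strand is not given in the sources used here.

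The Slc32a1 difference depended on scaling and on the control libraries. With median-of-ratios scaling the log2 fold change was 0.40 (unadjusted p = 0.110 in limma) and with upper quartile scaling 0.35 (unadjusted p = 0.145 in limma), and under both the groups overlapped. Against NMDA + PBS replicate 1 alone, which shares its transcript list, the log2 fold change was 0.16. Without NMDA + PBS replicate 1 it was 0.64 (unadjusted p = 0.00281 in limma). That setting leaves transcript list and group the same, and 4331 genes then reached an unadjusted p of 0.05, beside 2325 with 6 libraries. Without NMDA + PBS replicate 2, NMDA + PBS replicate 3 or NMDA + SCF replicates 1, 2 and 3 the unadjusted p was 0.111, 0.0787, 0.115, 0.0883 and 0.0903 in limma.

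The summed FPKM of some other lists also stood apart between the groups, those of bipolar markers, lens markers and GABA uptake and breakdown. The summed FPKM of 6 of 8 listed bipolar markers was 254 to 291 in NMDA + PBS and 296 to 322 in NMDA + SCF, with Pcp2 at 0 in every NMDA + PBS library and in NMDA + SCF replicate 1. Of these bipolar markers, 0 were higher and 0 lower at an unadjusted p of 0.05 in limma. Their median log2 fold change was 0.19, or 0.12 with median-of-ratios scaling and 0.069 with upper quartile scaling. Whether the bipolar sums stay apart under these scalings was not tested. Horizontal cells, like amacrine cells, use Slc32a1. Their 3 measured markers of 5 listed summed to 13.2 to 14.9 FPKM in NMDA + PBS and 9.58 to 14.1 FPKM in NMDA + SCF, with 1 of 3 lower at an unadjusted p of 0.05. The part of horizontal cells in the Slc32a1 difference was not tested, nor was the relation of that difference to the bipolar sum.

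Ratios of Slc32a1 to other members within a library do not change with the scaling of that library, and are given as a description. The ratio of its FPKM to that of Gad2 was 4.65, 3.57 and 2.59 in NMDA + PBS and 5.43, 4.92 and 5.30 in NMDA + SCF, with means of 3.60 ± 1.03 and 5.22 ± 0.266 (SD, n = 3 libraries per group). NMDA + PBS replicate 1 was again nearest to the NMDA + SCF libraries. The groups overlapped in the ratio of Calb2 to Slc32a1, at 0.713 to 1.03 in NMDA + PBS and 0.538 to 0.762 in NMDA + SCF, and in that of Chat to Slc32a1, at 0.0237 to 0.0724 and 0.00884 to 0.0317.

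**Figure D2:**
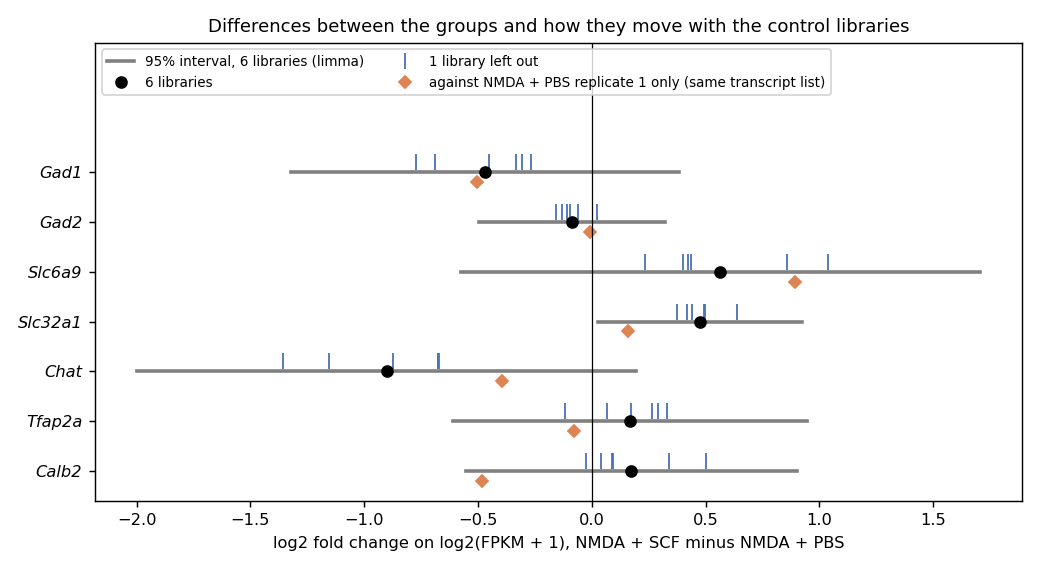
Log2 fold changes (horizontal axis, log2(FPKM + 1), NMDA + SCF minus NMDA + PBS) of the 7 amacrine genes with a mean of at least 1 FPKM over 6 libraries (black points) with 95% intervals from limma (grey bars), with each library left out in turn (blue ticks), and against NMDA + PBS replicate 1 alone (orange diamonds). The interval of Slc32a1 (0.03 to 0.93) is the only one that leaves out 0, and the diamonds of Tfap2a and Calb2 lie on the other side of 0 from their points.

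Slc6a9 (chr4:117834506-117875198, + strand) encodes the glycine transporter GlyT1, which glycinergic amacrine cells use in the retina. Its FPKM over the transcripts in both lists was 1.82, 4.32 and 1.96 in the NMDA + PBS libraries and 1.72, 7.27 and 5.39 in the NMDA + SCF libraries. NMDA + SCF replicate 1 was the lowest of all 6 libraries and replicates 2 and 3 were the highest, so the groups overlapped. The means were 2.70 ± 1.41 and 4.79 ± 2.82 FPKM. The log2 fold change was 0.57 (SE 0.487, 95% interval -0.58 to 1.71, adjusted p = 0.692 in limma), the widest interval of the 8 genes. Only 5 to 20 fragments per library stood behind it. Without NMDA + SCF replicate 1 the log2 fold change was 1.04 (unadjusted p = 0.0428 in limma). Without NMDA + SCF replicate 2 it was 0.24 (unadjusted p = 0.669 in limma), and against NMDA + PBS replicate 1 alone it was 0.89.

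The value of Slc6a9 also depended on which transcripts were summed. With all listed transcripts its log2 fold change was 2.01 (unadjusted p = 0.0101 in limma), and between 72.1 and 92.4% of the summed FPKM of each list A library then came from transcripts that list B lacks. Its protein-coding transcripts held 12.6, 68.5 and 37.8% of that sum in NMDA + PBS and between 6.95 and 15.4% in NMDA + SCF. The 14-exon and 15-exon coding transcripts (3479 and 3146 bases) had at most 11 fragments in any library. The difference with all transcripts therefore compares tables made with different lists, and the test of it is not read as a difference between the groups. Of the exon bases of Slc6a9, 1429 are shared with Ccdc24, 511 with Gm17114 and 46 with B4galt2, all on the opposite strand.

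**Figure D3:**
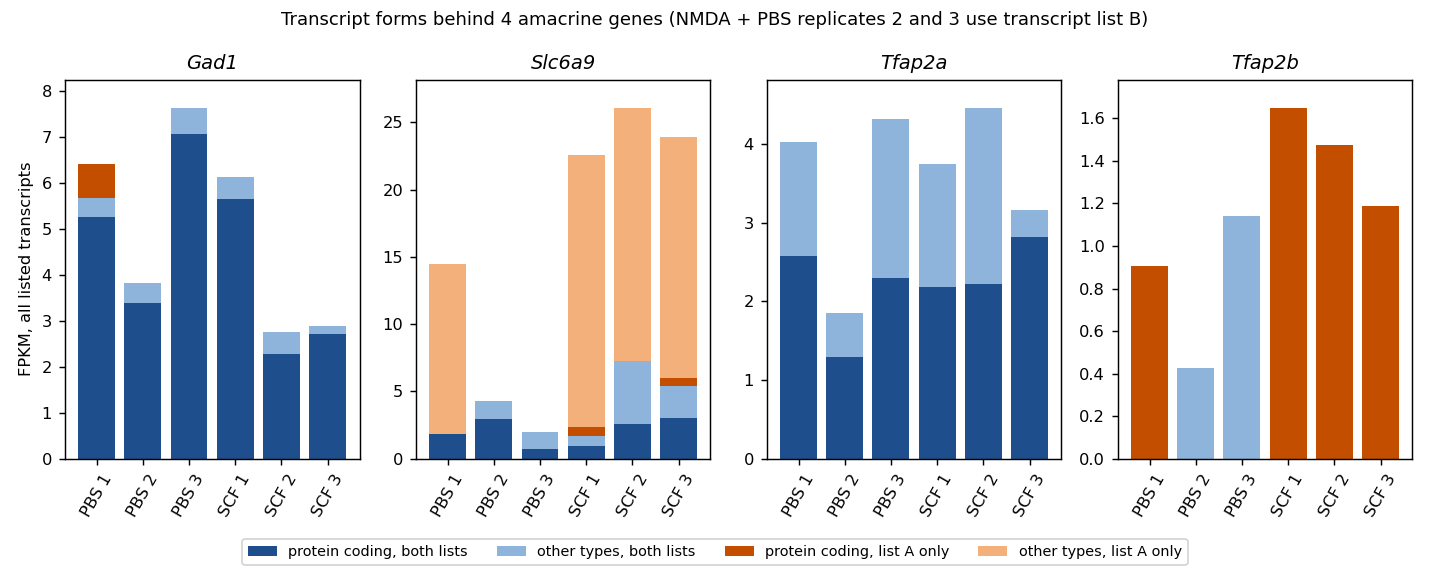
FPKM (vertical axis, from 0) of Gad1, Slc6a9, Tfap2a and Tfap2b in each library, stacked by transcript type and by transcript list, where NMDA + PBS replicates 2 and 3 have no list A transcripts. Slc6a9 reaches 14.5 to 26.1 FPKM in the list A libraries, mostly from transcripts absent from list B, and at most 4.32 FPKM in the list B libraries.

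Chat (chr14:32408203-32465989, - strand) encodes choline acetyltransferase, which makes acetylcholine and marks starburst amacrine cells. Its FPKM was 2.98, 6.73 and 4.90 in NMDA + PBS and 4.70, 1.21 and 1.21 in NMDA + SCF. NMDA + SCF replicates 2 and 3 were below every control library, while NMDA + SCF replicate 1 lay among the controls. The means were 4.87 ± 1.87 and 2.37 ± 2.01 FPKM (SD, n = 3 libraries per group), on 29, 76 and 62 fragments in NMDA + PBS and 46, 12 and 12 in NMDA + SCF. The log2 fold change was -0.90 (SE 0.467, 95% interval -2.0 to 0.19, adjusted p = 0.552 in limma). Chat had the largest change in size of the 7 genes above 1 FPKM, and it did not pass the test.

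The estimate for Chat moved with single libraries. It was -1.36 without NMDA + SCF replicate 1 (unadjusted p = 0.0144 in limma) and -0.67 without NMDA + SCF replicate 2, and against NMDA + PBS replicate 1 alone it was -0.39. With voom on the recovered fragments it was -1.27 (unadjusted p = 0.0419). Only 1 of the 7 annotated coding transcripts of Chat was listed, the 16-exon transcript of 2858 bases, which held 96.8 to 100% of the Chat value in every library.

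The other cholinergic genes gave a mixed picture. Of 7 listed genes of acetylcholine and starburst cells, 6 had a value, 0 were higher and 1 lower at an unadjusted p of 0.05, and the median log2 fold change was 0.12. Slc5a7, which encodes the choline transporter that feeds acetylcholine synthesis, was the lower one. Its FPKM was 3.69, 5.44 and 5.39 in NMDA + PBS and 2.99, 1.78 and 1.56 in NMDA + SCF, without overlap (log2 fold change -0.92, SE 0.308, unadjusted p = 0.0193, adjusted p = 0.535 in limma). Slc18a3, the vesicular acetylcholine transporter gene that lies within the Chat gene, was named after its values were seen and had an FPKM of 6.21, 6.88 and 5.41 in NMDA + PBS and 7.26, 4.88 and 1.80 in NMDA + SCF. For Slc18a3 as for Chat, NMDA + SCF replicate 1 was not below the controls. Sox2, a transcription factor of starburst cells and Müller glia with the highest mean of the list, had an FPKM of 75.8, 76.0 and 59.3 in NMDA + PBS and 85.0, 100.02 and 85.9 in NMDA + SCF, with a log2 fold change of 0.36 (adjusted p = 0.545 in limma).

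The AP-2 factor genes were low throughout. Tfap2a (chr13:40715302-40738376, - strand) had an FPKM of 4.02, 1.85 and 4.31 in NMDA + PBS and 3.74, 4.46 and 3.16 in NMDA + SCF. NMDA + PBS replicate 2 was the lowest library and the other 5 lay within 3.16 to 4.46 FPKM, so the groups overlapped. The means were 3.39 ± 1.35 and 3.79 ± 0.649 FPKM, with a log2 fold change of 0.17 (SE 0.332, 95% interval -0.61 to 0.95, adjusted p = 0.865 in limma). The sign was not stable, at -0.12 without NMDA + PBS replicate 2 and -0.078 against NMDA + PBS replicate 1 alone. These sums rest on 21 to 46 fragments per library, and the 7-exon coding transcript of 3487 bases carried 18 to 34 of them.

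Tfap2b (chr1:19208914-19238576, + strand) was at or near 0 in the transcripts shared by the lists. It was at 0 in NMDA + PBS replicate 1 and in all NMDA + SCF libraries, and at 0.425 and 1.14 FPKM in NMDA + PBS replicates 2 and 3, which is 1 and 3 fragments of a retained-intron transcript. Both groups were thus at or under a floor of 3 fragments, the most that a count of 0 allows, and no fold is read from them. The longest coding transcript (5863 bases) had 0 fragments in every library. A second coding transcript was listed only in list A, and there it had 6 fragments in NMDA + PBS replicate 1 and 11, 10 and 8 in the NMDA + SCF libraries. A level of Tfap2b in NMDA + PBS replicates 2 and 3 could therefore not be had from these tables.

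Calb2 (chr8:110137502-110168210, - strand) was among the highest of the 8 genes. Its FPKM was 130.1, 68.4 and 62.3 in NMDA + PBS and 103.8, 73.5 and 104.7 in NMDA + SCF. NMDA + PBS replicate 1 was the highest of all 6 libraries while the other control libraries were the lowest, so the whole NMDA + SCF group lay inside the control range. The means were 86.9 ± 37.5 and 94.0 ± 17.8 FPKM, with a log2 fold change of 0.17 (SE 0.310, 95% interval -0.55 to 0.90, adjusted p = 0.852 in limma). Between 366 and 634 fragments per library stood behind these values. Against NMDA + PBS replicate 1 alone the log2 fold change was -0.48, and without NMDA + PBS replicate 1 it was 0.50 (unadjusted p = 0.0443 in limma). Leaving that library out makes transcript list and group the same.

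Calb2 is also expressed by ganglion cells. The summed FPKM of 8 of 9 listed ganglion cell markers was 471 in NMDA + PBS replicate 1, 297 and 269 in replicates 2 and 3, and 317, 266 and 324 in the NMDA + SCF libraries. Both Calb2 and this sum were thus higher in NMDA + PBS replicate 1 than in the other 5 libraries. The sum rests on a few abundant markers, chiefly Sncg at 222 FPKM in that library, and Sncg, Nefl, Nefm and Thy1 were highest there while Rbpms, Pou4f2, Nefh and Slc17a6 were not. Of the 8 markers, 0 were higher and 2 lower at an unadjusted p of 0.05, and the lower ones, Nefh and Slc17a6, followed the transcript list. Nefh had an FPKM of 7.87, 55.5 and 41.4 in NMDA + PBS and 6.43, 5.90 and 5.07 in NMDA + SCF, and Slc17a6 of 0.142, 5.90 and 8.74 and of 0.0706, 0 and 0.353. In both, the control with list A was near the NMDA + SCF libraries. The median log2 fold change of the list was -0.20, and against NMDA + PBS replicate 1 alone -0.43. Rbpms was at 0 in NMDA + SCF replicate 1. The part of ganglion cells in the Calb2 values was not tested.

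The transcripts behind the 8 genes were also examined singly. Of 31 listed transcripts, 24 were in both lists, 6 were particular to list A and 1 to list B. Of the 23 that could be tested, only the Slc32a1 transcript (unadjusted p = 0.0453 and adjusted p = 0.591 in limma) reached an unadjusted p of 0.05, as did 7.98% of all 45261 transcripts tested. An adjusted p of 0.05 was reached by 0 of the 23. Only 7 of the 31 had more than 20 fragments in any library. For Gad2, Slc32a1, Chat and Calb2 a single coding transcript carried nearly the whole value, while Gad1, Slc6a9 and Tfap2a were sums of several low forms.

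The wider amacrine pathways were examined in 7 gene lists with 51 genes, of which 46 had a value. At an unadjusted p of 0.05, 1 of the 46 was higher and 4 were lower in NMDA + SCF in limma, where all genes gave 4.33 and 4.91%, and 0 reached an adjusted p of 0.05. The fold changes were positive for 23 and negative for 23. The groups did not overlap for 7 higher and 6 lower of the 46 genes. Over all genes the shares were 7.62 and 6.45%, and 11.8% were higher among genes with a mean of at least 1 FPKM. Both counts were larger shares of the 46 than those over all genes, which was not tested. The smallest adjusted p among the 46 was 0.535, which was also the smallest over all genes tested.

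**Figure D4:**
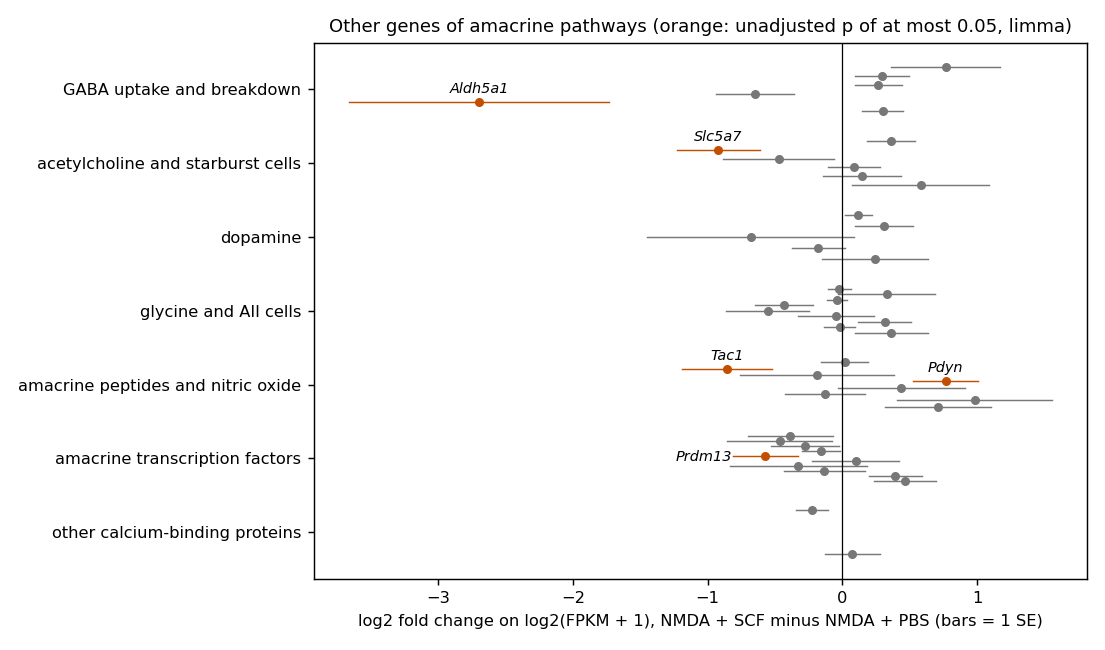
Log2 fold changes (horizontal axis, log2(FPKM + 1), NMDA + SCF minus NMDA + PBS) with 1 SE for the 46 measured genes of the 7 amacrine pathway lists, ordered by list. Orange marks the 5 genes that limma placed at an unadjusted p of at most 0.05, and Aldh5a1 lies farthest from 0, at -2.70.

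The genes of GABA uptake and breakdown act on the transmitter after its release. All 6 had a value, and 0 were higher and 1 lower at an unadjusted p of 0.05. The median log2 fold change was 0.28, or 0.055 against NMDA + PBS replicate 1 alone. Slc6a11, which encodes the GABA transporter GAT3 and had the highest mean of the list, had an FPKM of 249.9, 189.3 and 170.0 in NMDA + PBS and 261.7, 242.9 and 234.4 in NMDA + SCF (log2 fold change 0.29, SE 0.2004, adjusted p = 0.649 in limma). Its groups overlapped through NMDA + PBS replicate 1.

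Aldh5a1, which encodes the last enzyme of GABA breakdown, followed the transcript list and not the groups. Its FPKM was 0.780 in NMDA + PBS replicate 1, 21.7 and 24.8 in replicates 2 and 3, and 0.620, 0.560 and 0.512 in the NMDA + SCF libraries. The only control with the transcript list of the NMDA + SCF libraries thus had their level. The log2 fold change was -2.70 (SE 0.965, unadjusted p = 0.0256, adjusted p = 0.535 in limma) and rests on NMDA + PBS replicates 2 and 3.

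Of the 6 listed dopamine genes, 5 had a value and 0 passed an unadjusted p of 0.05 in either direction, with a median log2 fold change of 0.12. Maoa, a monoamine oxidase gene with the highest mean of the list, had an FPKM of 15.4, 14.2 and 11.2 in NMDA + PBS and 12.2, 11.7 and 11.6 in NMDA + SCF. Nr4a2, a transcription factor gene of dopaminergic neurons with the largest fold change of the list (-0.68, SE 0.769, adjusted p = 0.757 in limma), had an FPKM of 3.76, 8.29 and 1.44 in NMDA + PBS and 0, 3.16 and 5.29 in NMDA + SCF. Slc6a3, the dopamine transporter gene, which was named after its values were seen, stayed under 0.17 FPKM in every library.

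The 9 genes of glycinergic and AII amacrine cells all had a value, and 0 were higher or lower at an unadjusted p of 0.05, with a median log2 fold change of -0.02. Gjd2, which encodes the gap junction protein connexin 36 of AII amacrine cells and other retinal neurons, had an FPKM of 194.9, 137.6 and 140.9 in NMDA + PBS and 205.9, 197.5 and 180.0 in NMDA + SCF (log2 fold change 0.32, SE 0.197, adjusted p = 0.617 in limma). NMDA + PBS replicate 1 lay among the NMDA + SCF libraries. Slc17a8, which encodes the vesicular glutamate transporter of a small amacrine class, had an FPKM of 1.25, 2.37 and 4.09 in NMDA + PBS and 3.21, 3.29 and 3.24 in NMDA + SCF, and the groups overlapped. Slc6a5, the other glycine transporter gene, which was also named after its values were seen, was below 0.1 FPKM in every library.

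No peptide or nitric oxide gene of amacrine cells passed an adjusted p of 0.05 in limma. Of 9 listed, 8 had a value, 1 was higher and 1 lower at an unadjusted p of 0.05 in limma, and the median log2 fold change was 0.23, or -0.039 against NMDA + PBS replicate 1 alone. Pdyn, which encodes the precursor of dynorphins, was the higher one, at 22.4, 13.9 and 21.4 FPKM in NMDA + PBS and 39.9, 29.5 and 29.9 FPKM in NMDA + SCF (log2 fold change 0.77, SE 0.240, unadjusted p = 0.0142, adjusted p = 0.535). Tac1, which encodes the precursor of substance P, was the lower one, at 2.59, 1.98 and 1.28 FPKM in NMDA + PBS and 0.949, 0.234 and 0.705 FPKM in NMDA + SCF (log2 fold change -0.86, SE 0.337, unadjusted p = 0.0374, adjusted p = 0.535). The groups did not overlap for either gene, and both were named after their values were seen. By the naming rule, Npy had an FPKM of 69.5, 71.5 and 21.5 in NMDA + PBS and 90.8, 53.3 and 56.2 in NMDA + SCF. Crh had an FPKM of 0.668, 3.62 and 7.68 in NMDA + PBS and 6.85, 5.44 and 9.20 in NMDA + SCF, with a log2 fold change of 0.98 (SE 0.577, adjusted p = 0.593 in limma). Both neuropeptide genes overlapped between the groups.

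Of 12 listed transcription factors of amacrine cells, 10 had a value, 0 were higher and 1 was lower at an unadjusted p of 0.05, and the median log2 fold change was -0.22, or 0.080 against NMDA + PBS replicate 1 alone. The lower one was Prdm13, a factor of GABAergic and glycinergic amacrine cells named after its values were seen, at 0.347, 0.742 and 1.196 FPKM in NMDA + PBS and 0.345, 0.170 and 0 FPKM in NMDA + SCF (log2 fold change -0.57, unadjusted p = 0.0479, adjusted p = 0.535 in limma). NMDA + PBS replicate 1 and NMDA + SCF replicate 1 were nearly equal. Pax6, the factor gene with the highest mean, had an FPKM of 20.2, 48.5 and 38.2 in NMDA + PBS and 42.4, 30.4 and 36.0 in NMDA + SCF (log2 fold change 0.10, adjusted p = 0.928 in limma). Barhl2, which acts in the specification of amacrine subtypes, had an FPKM of 23.7, 21.7 and 13.8 in NMDA + PBS and 26.6, 27.3 and 27.1 in NMDA + SCF, without overlap (log2 fold change 0.47, SE 0.230, adjusted p = 0.545 in limma). Calb1, which encodes calbindin and was the highest of 2 other calcium-binding protein genes, had an FPKM of 65.6, 44.9 and 44.2 in NMDA + PBS and 51.4, 58.8 and 50.3 in NMDA + SCF. As for Calb2, the NMDA + SCF libraries of Calb1 lay inside the control range.

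Among the marker lists, that of the lens had the largest median log2 fold change, at 4.09. Of 8 listed lens markers, 7 had a value, 6 were higher and 0 lower at an unadjusted p of 0.05 in limma, and their summed FPKM was 23.4 to 294.9 in NMDA + PBS and 443 to 9062 in NMDA + SCF, with Cryaa and Lim2 at 0 in NMDA + PBS replicates 1 and 2. Pigment epithelium and ciliary body markers (7 of 7) summed to 194 to 869 FPKM in NMDA + PBS and 756 to 965 FPKM in NMDA + SCF, with 1 higher and 0 lower. Müller glia markers (7 of 8) summed to 3061 to 4053 and 3145 to 3338 FPKM, with 0 higher and 1 lower. The lower one, Dkk3, followed the transcript list, at 0.262, 979.9 and 1007 FPKM in NMDA + PBS and 0.261, 0.0856 and 0.172 FPKM in NMDA + SCF, and it is part of the sums of NMDA + PBS replicates 2 and 3. Microglia markers (5 of 7) summed to 35.9 to 291 and 219 to 302 FPKM, with 0 in either direction. Cx3cr1 was near 0 in both groups, at 0.0654, 0.0560 and 0 FPKM in NMDA + PBS and at 0 in all NMDA + SCF libraries. Of the 7 rod markers, 2 were higher and 0 lower. The part of these tissues in the values of the 8 amacrine genes was not tested.

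The 7 amacrine genes above 1 FPKM did not all move together over the 6 libraries. Pearson r between pairs of these genes ran from -0.95 (Gad1 and Slc6a9) to 0.70 (Slc32a1 and Calb2). The mean of their centred log2(FPKM + 1) ranged from -0.08 in NMDA + SCF replicate 3 to 0.11 in NMDA + SCF replicate 1, so it did not follow the groups. The 5 other genes most like this mean, out of 13999 genes with a mean of at least 1 FPKM, were AC124709.3, Ssx2ip, Gm44026, Bahcc1 and Gm17833, with Pearson r of 0.985, 0.983, 0.976, 0.971 and 0.971 over 6 libraries that share their depth and scaling with the members. They are given as a description, and 46 genes had an r above 0.9. Ssx2ip, for example, had an FPKM of 3.64, 2.32 and 3.48 in NMDA + PBS and 4.49, 2.21 and 1.78 in NMDA + SCF, highest in NMDA + SCF replicate 1 as the mean was.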

How the data were processed

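The authors enriched retinal mRNA with oligo(dT), sequenced it on an Illumina HiSeq and deposited FPKM values per transcript for each library, with a table of clean read numbers (other columns of that table were not used). Per the labels the genome build was mm9, while 98.2% of 63313 transcript positions equalled GENCODE release M21 on GRCm38, so coordinates are given on GRCm38. The aligner and counter are not given in the sources used here.

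FPKM was summed by gene symbol over the 46933 Ensembl transcripts in both lists. Transcripts of a merged assembly carry no gene name and were left out (8.85 to 11.4% of the FPKM sum). Groups were compared with limma 3.58.1 (variance trend) in R 4.3.3 on log2(FPKM + 1), condition only, over the 25168 genes above 0 in any library, with Benjamini-Hochberg adjustment over all of them. The fit was tested on simulated data. Exact permutation tests used scipy 1.17.1 in Python 3.11.15. Between 98.4 and 98.5% of values were whole fragments (tolerance 0.05, or the rounding of the file where larger), which gave fragment numbers and an added voom fit. Floors cover counting error only.

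The members and gene lists were chosen with earlier results of these data known. Named genes are the 9 members, in each pathway list the gene with the highest mean and the one with the largest fold change above a mean of 1 FPKM, and the 5 genes most like the members. Alternatives were 2 scalings, a pseudocount of 0.1, a filter at a mean of 1 FPKM, all listed transcripts, voom, a replicate block, a term for the transcript list, list A libraries only, and leaving out each library. Slc18a3, Slc6a3, Slc6a5, Pdyn, Tac1, Prdm13 and the marker genes were named outside this rule, after their values were seen. 1 gene of the pathway lists is not reported singly here.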

Additional observations from a re-analysis of the deposited data

Results flagged for a closer look

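Signal was found in transcripts that the comparisons above do not use, because list B lacks them, so that NMDA + PBS replicate 1 is the only control library. With 1 control library there is no test. A retained-intron transcript of Slc6a9 (chr4:117874082-117875198, 2 exons, 678 bases) had an FPKM of 10.8 in NMDA + PBS replicate 1 and 20.2, 18.2 and 17.9 in NMDA + SCF replicates 1, 2 and 3, with a mean of 18.8 in NMDA + SCF, on 25 fragments and 47, 43 and 42 fragments. It lies inside B4galt2 on the opposite strand with 0 shared exon bases, and B4galt2 had an FPKM of 13.3, 7.14 and 6.40 in NMDA + PBS and 17.0, 10.8 and 16.3 in NMDA + SCF.

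A protein-coding transcript of Tfap2b (chr1:19212054-19234624, 7 exons, 1946 bases) had an FPKM of 0.906 in NMDA + PBS replicate 1 and 1.65, 1.48 and 1.19 in the NMDA + SCF libraries, with a mean of 1.44 in NMDA + SCF, on 6 fragments and 11, 10 and 8 fragments. The differences from the single control library were not tested.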

How the results depend on the processing

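Signs of the fold changes of Gad1, Slc6a9, Slc32a1 and Chat were kept under all 15 alternatives, and no member reached an adjusted p of 0.05 under any alternative that gives one. The fitted value of Tfap2b, which is at or under the floor of 3 fragments, turned from negative to positive (0.43) with all listed transcripts, which compares tables with different lists. Tfap2a was -0.078 and Calb2 -0.48 with the transcript list as a term or with list A libraries only, both of which leave NMDA + PBS replicate 1 as the only control. With 1 library left out, the log2 fold change ranged from -0.12 to 0.33 for Tfap2a, -0.024 to 0.50 for Calb2, -0.16 to 0.022 for Gad2, -1.36 to -0.67 for Chat and 0.38 to 0.64 for Slc32a1. It ranged from 0.24 to 1.04 for Slc6a9 and from -0.77 to -0.27 for Gad1. The cause was not tested.

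The number of members with an unadjusted p of at most 0.05 (1) became 0 under median-of-ratios scaling, upper quartile scaling, the replicate block and the list term, 2 with all listed transcripts and with voom, and 0 to 3 with 1 library left out. The number whose groups did not overlap (1) became 0 under both scalings, 3 with all listed transcripts, 2 in list A libraries, and 1 to 4 with 1 library left out. Over all genes, an adjusted p of at most 0.05 was reached by 0 genes, by 2 with voom, by 53 with the list term, and by 0 to 909 with 1 library left out. The 909, and 192 genes past both thresholds (otherwise 0), came without NMDA + PBS replicate 1, which leaves list and group the same. An unadjusted p of 0.05 was reached by 2325 genes, and by 1149 to 4331 with 1 library left out and 1856 with the replicate block, in which Slc32a1 had an unadjusted p of 0.0759 (limma). Deviations of libraries with the same replicate number correlated at -0.05, -0.05 and -0.08, so no pairing by number was seen. The transcript lists split the NMDA + PBS libraries only, so these correlations cannot exclude a pairing. Gad1, Slc6a9, Chat, Tfap2a and Tfap2b had fewer than 80 fragments in each library, and the part of depth in their spread was not tested.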
